A study of Danio rerio with 6 samples.

Results

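Radial glia markers were followed across whole-brain RNA of adult zebrafish in 6 libraries, 3 from fish homozygous for C246X, a CRISPR/Cas9 allele of chrna3, and 3 from wild-type (WT) fish. The product of chrna3 is a subunit, alpha3, of nicotinic acetylcholine receptors of neurons. The markers were chosen by 10 gene names: 1 copy of FABP7 given by its Ensembl identifier, and gfap, s100b, slc1a2b, slc1a3b, glula, cx43, aqp4, cyp19a1b and msi1 given by symbol. Of the 10 names, 9 were matched, to 12 of the 23678 genes in the table. The names slc1a2b, slc1a3b and glula were each matched to a pair of genes, because both copies carry the shared symbol SLC1A2, SLC1A3 or GLUL in the gene-name table and no letter tells them apart, so both copies are given throughout. The name cx43 was matched to GJA1. Brain aromatase, cyp19a1b, was not analysed here: the CYP19A1 gene of the table carries an older name that RefSeq gives to the gonadal type, cyp19a1a.

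Radial glia line the ventricles of the vertebrate brain, send long processes to the outer surface and act as neural progenitors. In mammals they are largely lost after development, whereas in zebrafish they persist into adulthood, keep producing neurons and take over tasks that astrocytes have in mammals, such as clearing glutamate and buffering ions and water. The markers followed here cover these tasks: the filament of the cell body (gfap), lipid and calcium binding (FABP7, s100b), glutamate uptake and its conversion to glutamine (slc1a2, slc1a3, glul), coupling between cells and water transport (cx43, aqp4), and the progenitor state (msi1).

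Values are scaled estimated reads: each library's estimates were divided by a factor of its own. A library held 24222346 to 26659978 estimated reads before this scaling, and 25655952 to 26794838 after it. Log2 differences are C246X minus WT, taken after 1 was added to each value. A gene passed when its limma p, adjusted by Benjamini-Hochberg over the 23104 genes tested, was under 0.05. Whether a library is 1 fish or a pool of fish is not in the labels, so the p-values speak of the spread among these 6 samples alone, and that spread may be technical. In RNA of a whole brain, fewer radial glia and less RNA of a marker per cell cannot be told apart. The values are not divided by gene length, so levels are compared between genotypes within a gene and not between genes. The sources used here do not give the counting method, so the split of reads between near-identical copies is uncertain.

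Apart from the FABP7 copy, whose fall was known when it was put on the list, 3 of the 11 marker genes fell in C246X brains, none rose and 8 did not pass. The 3 that fell were MSI1, S100B and a copy of GLUL. This is 27.3% of the 11 genes, against 22.5% of all tested genes that passed in either direction, 11.4% lower and 11.1% higher. The C246X and WT libraries were apart, with no overlap, for 5 of the 11 genes, 4 lower and 1 higher in C246X, which is 45.5% against 41.4% of all tested genes. Of all tested genes, 20.7% had non-overlapping libraries that were lower in C246X and 20.7% had ones that were higher. The median difference of the 11 genes was −0.37, against −0.01 over all tested genes, and 9 of the 11 differences were negative. These 9 include GFAP, at −0.00, and AQP4 and SLC1A2 ENSDARG00000052138, whose means were under 20. Counted in either direction, the shares that passed and that did not overlap were both close to those of all genes. All 3 genes that passed were lower, so the share lower was 27.3%, against 11.4% of all tested genes. These 3 include a GLUL copy that may not be the one the name glula means, and the other GLUL copy did not pass. The markers and the gene lists below were chosen with earlier results of these data known, so shares beside those of all genes are descriptions. Without C246X replicate 3, only MSI1 of the 11 genes fell. Of the 12 markers, 10 had a mean of at least 20 scaled reads, and the other two, AQP4 and a copy of SLC1A2, were close to undetected in both genotypes.

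**Figure D1:**
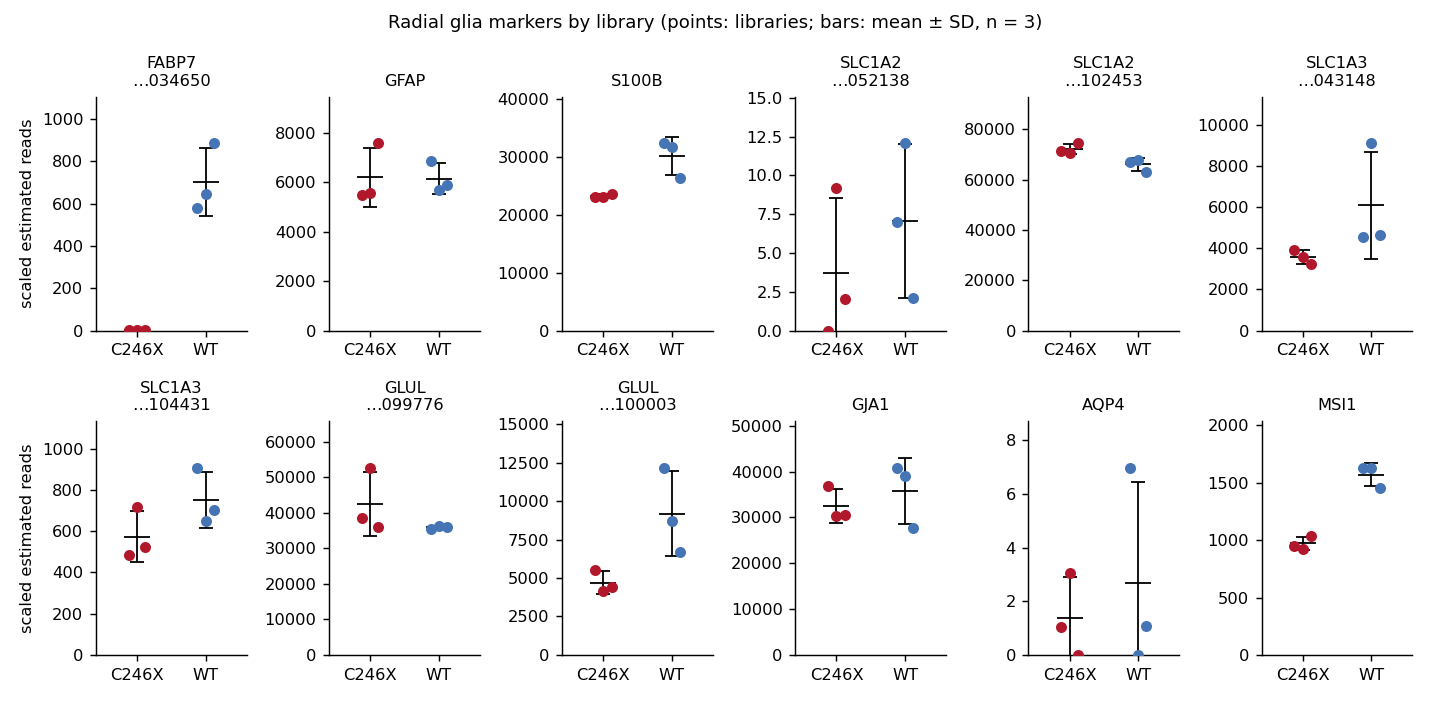
Each panel plots 1 of the 12 marker genes in scaled estimated reads (linear axis from 0, a scale of its own in every panel) for the 3 C246X libraries (red, left) and the 3 WT libraries (blue, right); black bars give the mean and SD, and titles end with the last 6 digits of the identifier where a symbol has several copies. The FABP7 copy sits near 0 in all 3 C246X libraries, MSI1, S100B and the GLUL copy ENSDARG00000100003 lie lower in all 3 C246X libraries than in any WT library, and the genotypes of GFAP overlap.

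**Figure D2:**
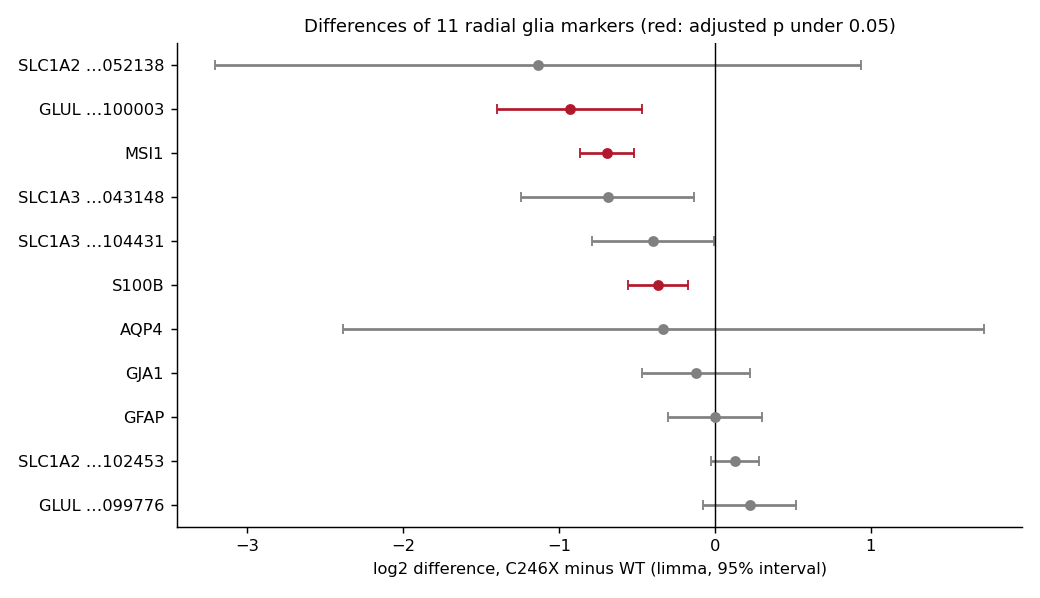
Points give the log2 difference, C246X minus WT, of the 11 marker genes other than the FABP7 copy, with 95% intervals from limma; red points passed at an adjusted p under 0.05. The 3 red points, MSI1, S100B and 1 GLUL copy, all lie left of 0, and GFAP lies at 0 with an interval from −0.30 to 0.30.

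The filament gene GFAP (ENSDARG00000025301), which encodes glial fibrillary acidic protein, the classical marker of radial glia and astrocytes, had 5468, 5542 and 7562 scaled reads in the C246X libraries, against 6856, 5677 and 5896 in the WT libraries. The libraries of the genotypes overlapped, and the highest value was that of C246X replicate 3. The means were 6191 ± 1188 in C246X and 6143 ± 627 in WT (SD, n = 3 each), and the log2 difference was −0.00 with a 95% interval of −0.30 to 0.30 (limma, adjusted p = 0.999). The sign of the GFAP difference turned when C246X replicate 1, C246X replicate 2 or WT replicate 1 was left out, to 0.08, 0.07 and 0.08. The 3 genes whose profile over the 6 libraries lay closest to that of GFAP, among 18248 genes with a mean of at least 20, were SRA1, RPL12 and KLHDC4, at root mean square distances of 0.048, 0.052 and 0.057 on the log2 scale.

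FABP7 encodes brain lipid-binding protein, which carries fatty acids and is a standard marker of radial glia. Its copy ENSDARG00000034650 was nearly undetected in C246X brains, with scaled values of 4.13, 1.02 and 1.01, against 578, 647 and 885 in the WT libraries. These are 4, 1 and 1 estimated reads in C246X, against 581, 644 and 836 in WT, or 6 reads in all against 2061. The mean was 2.05 ± 1.8 in C246X and 704 ± 161 in WT (SD, n = 3 each). Relative to the total estimated reads of the libraries, the C246X level was 0.286% of the WT level. The exact 95% interval of 0.105% to 0.625% pools the reads of the 3 libraries of each genotype. It covers counting error only, not the spread among libraries or the choice of this copy by its fall. The copy was named for this pattern, so its values are given as a description with no test. The profiles most like it were those of si:ch211-209l18.8, mhc2dab, a class II major histocompatibility gene, and si:ch211-207c6.6, at distances of 0.135, 0.456 and 0.55. A search on the values that put this copy on the list returns genes nearly absent in C246X. A link between these genes was not tested. The gene mhc2dab had 4.13, 3.06 and 2.01 scaled reads in C246X, against 979, 1563 and 2260.3 in WT.

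The other FABP7 copy, ENSDARG00000007697, fell as well, by a smaller amount. It had 16586, 18892 and 19720.4 scaled reads in the C246X libraries, against 24221, 29672 and 27576 in the WT libraries. All 3 C246X libraries lay below all 3 WT libraries. The means were 18399 ± 1624 in C246X and 27156 ± 2749 in WT (SD, n = 3 each), which is 67.8% of the WT mean and a log2 difference of −0.56 with an SE of 0.09 (limma, adjusted p = 0.00497). The call held under all 14 alternative settings. Summed over both copies, FABP7 stood at 18401 ± 1622 in C246X and 27860 ± 2808 in WT (SD, n = 3 each), so the sum was 66.0% of the WT mean. The copy ENSDARG00000034650 made up 0.0249%, 0.00539% and 0.00511% of that sum in the C246X libraries, against 2.33%, 2.13% and 3.11% in the WT libraries.

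S100B (ENSDARG00000057598) encodes a calcium-binding protein of glia and fell moderately. Its values were 23114, 23005 and 23614 in the C246X libraries, against 32315, 31684 and 26340.0 in the WT libraries. The C246X libraries lay close together and below every WT library, and WT replicate 3 was the lowest of its genotype. The C246X mean of 23244 ± 325 was 77.2% of the WT mean of 30113 ± 3283 (SD, n = 3 each), with a log2 difference of −0.37 and an SE of 0.08 (limma, adjusted p = 0.0174). The call was lost when any 1 of the 3 C246X libraries was left out, with adjusted p-values in limma between 0.0554 and 0.0659.

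Within the wider S100 family, 3 of the 13 tested genes other than s100w fell (23.1%, against 11.4% of all tested genes) and none rose. Beside S100B, s100a10b, whose product binds annexin A2 in mammals, fell with 651, 638 and 812 scaled reads in C246X, against 939, 1060.1 and 944 in WT (log2 difference −0.49, limma, adjusted p = 0.0141). That call was lost without C246X replicate 1 or 2, at adjusted p-values of 0.0599 and 0.0554 in limma. Without C246X replicate 1, and again without C246X replicate 2, no S100 gene fell. The gene s100w had 2.06, 5.09 and 3.02 scaled reads in C246X and was listed at 0 in all 3 WT libraries, so it reached the minimum mean only through C246X and is given as values, with no test.

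The excitatory amino acid transporters SLC1A2 (GLT-1 in mammals) and SLC1A3 (GLAST) take up glutamate released by neurons. The SLC1A2 copy ENSDARG00000102453 had 71202, 70520.5 and 74354 scaled reads in the C246X libraries, against 67126, 67918 and 63058 in the WT libraries. It was the only marker gene whose C246X libraries all lay above the WT libraries, and its log2 difference of 0.13 (95% interval −0.03 to 0.28) did not pass in limma (adjusted p = 0.215). The other SLC1A2 copy, ENSDARG00000052138, had 0, 9.17 and 2.01 scaled reads in C246X and 6.97, 12.1 and 2.12 in WT. At this depth its interval ran from −3.21 to 0.94, and no difference was detectable.

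Both SLC1A3 copies had negative differences that did not pass. The copy ENSDARG00000043148 had 3916, 3596 and 3222 scaled reads in the C246X libraries, against 4525, 9098 and 4629.7 in the WT libraries. The genotypes did not overlap, and WT replicate 2 stood far above the other WT libraries. The log2 difference was −0.69 with a 95% interval of −1.25 to −0.13 (limma, adjusted p = 0.077), and without WT replicate 2 it was −0.36 and passed, at an adjusted p of 0.0286 in limma. The copy ENSDARG00000104431 had 485, 715 and 521 scaled reads in C246X and 907, 649 and 701 in WT. Its libraries overlapped, with a log2 difference of −0.40 (limma, adjusted p = 0.133), and it passed without C246X replicate 2, at −0.57 and an adjusted p of 0.0493 in limma.

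SLC1A3 is also a marker of Müller glia, the radial glia of the retina, and the summed values of the 14 retina and lens markers were 3837, 9044 and 4109 in C246X, against 10442, 25918 and 14845 in WT. WT replicate 2 was the highest library of that sum, as it was for SLC1A3 ENSDARG00000043148, but it was the lowest WT library for SLC1A3 ENSDARG00000104431. Within C246X, replicate 2 had the highest retina and lens sum and the highest value of SLC1A3 ENSDARG00000104431. It did not have the highest value of SLC1A3 ENSDARG00000043148. Of the 13 retina and lens markers tested, 9 fell (69.2%, against 11.4% of all tested genes), and none rose. No marker of that list was listed at 0 in every library. The marker rlbp1a of this list had 8.25, 58.1 and 10.1 scaled reads in C246X, against 86.6, 159.8 and 119 in WT. The count of 9 was 0 without C246X replicate 1, C246X replicate 3 or WT replicate 2, and 1 without WT replicate 3. The part of the retina and lens markers in the values of SLC1A3 and of the other glial genes was not tested. Which tissue in these whole-brain samples the markers of that list came from was not tested either.

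Across the 11 tested glutamate transporters, 1 rose (9.09%) and 2 fell (18.2%), against 11.1% higher and 11.4% lower among all tested genes. The neuronal transporter slc1a6 rose, with 735, 649.8 and 681 scaled reads in C246X, against 444, 503 and 532 in WT (log2 difference 0.48, limma, adjusted p = 0.00882). The SLC1A7 copy ENSDARG00000026248, whose mammalian counterpart is a retinal transporter, fell, with 53.3 ± 4.22 in C246X and 101 ± 5.96 in WT (SD, n = 3 each; log2 difference −0.91, limma, adjusted p = 0.008). Both calls held under all 14 alternatives, whereas that of the other SLC1A7 copy that fell, ENSDARG00000034940, passed in 7 of 13. It was lost without any 1 of the C246X libraries, without WT replicate 1 or 2, and under limma-voom with all libraries kept.

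Glutamine synthetase, encoded by GLUL, turns the glutamate taken up by glia into glutamine. Its 2 copies differed in sign. The copy ENSDARG00000100003 fell, with 5545, 4173 and 4403 scaled reads in the C246X libraries, against 12172, 8725 and 6669 in the WT libraries. The genotypes did not overlap, and the spread was wide in WT. The C246X mean of 4707 ± 735 was 51.2% of the WT mean of 9188 ± 2781 (SD, n = 3 each), with a log2 difference of −0.93 and an SE of 0.20 (limma, adjusted p = 0.0142). The call was lost without C246X replicate 2 or C246X replicate 3, at adjusted p-values of 0.0558 and 0.0538 in limma. The summed retina and lens markers given above were also lower in C246X, and their part in this fall was not tested.

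The copy ENSDARG00000099776 had 38628, 52651 and 36111 scaled reads in C246X and 35365, 36208 and 36114 in WT. The WT libraries lay close together, C246X replicate 2 stood above all others, and the log2 difference of 0.22 (95% interval −0.08 to 0.52) did not pass in limma (adjusted p = 0.255). The sum of both copies was 47170.4 ± 8558 in C246X and 45084 ± 2381 in WT (SD, n = 3 each; exact two-sided permutation p = 0.9). The copy ENSDARG00000100003 made up 12.6%, 7.34% and 10.9% of that sum in C246X, against 25.6%, 19.4% and 15.6% in WT. These shares did not overlap. The exact permutation test, taken on the log2 ratio of the copies, gave p = 0.1. This is the smallest that 3 libraries against 3 can give (0.2 when adjusted over the 6 pairs of copies compared). The 6 pairs include that of FABP7, whose copy was named for its fall, which lowers the adjusted values here and below. Of the 19 tested genes of glutamine and glutamate metabolism, 2 fell (10.5%, against 11.4% of all tested genes), this copy among them, and none rose. Of this list 2 genes rose without WT replicate 1, none fell without C246X replicate 2 or 3, and 1 fell without C246X replicate 1, WT replicate 2 or WT replicate 3.

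**Figure D3:**
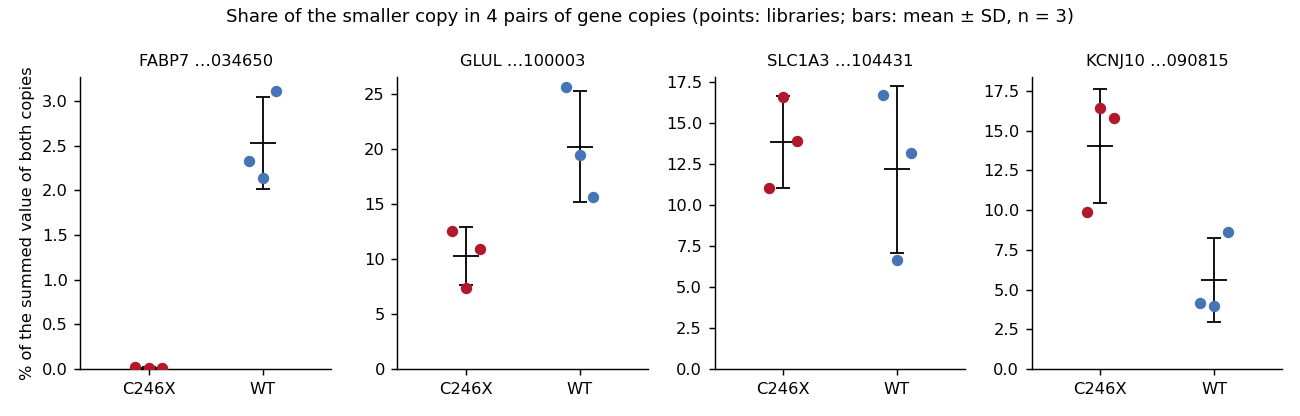
Panels plot, for 4 pairs of gene copies, the named copy's share (percent of the summed value of both copies, not corrected for length, axes from 0) in the 3 C246X libraries (red, left) and the 3 WT libraries (blue, right); black bars give the mean and SD. The shares of FABP7 ENSDARG00000034650 and GLUL ENSDARG00000100003 lie lower in C246X, that of KCNJ10 ENSDARG00000090815 lies higher, and those of SLC1A3 ENSDARG00000104431 overlap.

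For SLC1A3 the shares of the copies overlapped between genotypes and the sums did not. The copy ENSDARG00000104431 made up 13.8% ± 2.78 of the sum in C246X and 12.2% ± 5.09 in WT (SD, n = 3 each). For the log2 ratio of the copies the exact permutation p was 0.7. The sum was 4152 ± 357 in C246X and 6836 ± 2521 in WT (SD, n = 3 each), with an exact permutation p of 0.1, or 0.15 over the 6 pairs.

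GJA1 (ENSDARG00000041799) encodes connexin 43, the gap junction protein that couples radial glia. It had 36799, 30241 and 30576.5 scaled reads in C246X and 40822, 39070.2 and 27576 in WT. WT replicate 3 lay below every C246X library, so the genotypes overlapped, and the log2 difference of −0.12 (95% interval −0.47 to 0.22) did not pass in limma (adjusted p = 0.598). The second connexin 43 gene, gja1a, averaged 43.8 ± 9.98 in C246X and 46.5 ± 0.292 in WT (SD, n = 3 each), with a difference of −0.11 that did not pass in limma (adjusted p = 0.779). Of the 12 connexins tested, none fell and 1 rose (8.33%, against 11.1% of all tested genes). The gene that rose was the GJD2 copy ENSDARG00000067999, a connexin of electrical synapses between neurons. It had 633, 648 and 639 in C246X, against 489, 461 and 420.5 in WT (log2 difference 0.49, limma, adjusted p = 0.00494).

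AQP4 (ENSDARG00000010565), the water channel of astrocyte endfeet in mammals, was at the limit of detection in both genotypes, with 1.03, 3.06 and 0 scaled reads in C246X and 6.97, 0 and 1.06 in WT. A label as a radial glia marker could therefore not be checked for AQP4 in these brains. Its interval ran from −2.39 to 1.73, and the sign turned without C246X replicate 3 or WT replicate 1, to 0.18 and 0.49. Among the 14 aquaporins tested, 2 fell (14.3%, against 11.4% of all tested genes) and none rose. AQP11, an intracellular aquaporin, had 752, 705 and 779.7 scaled reads in C246X, against 1051, 888 and 907 in WT (log2 difference −0.34, limma, adjusted p = 0.0239). AQP3, which also passes glycerol, had 12.4, 11.2 and 22.2 in C246X, against 73.7, 29.1 and 61.4 in WT (log2 difference −1.74, limma, adjusted p = 0.0213). Both calls were lost without C246X replicate 1 or 2, that of AQP11 also without C246X replicate 3, and that of AQP3 also without WT replicate 1 or 3, at adjusted p-values between 0.0518 and 0.089 in limma.

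MSI1 (ENSDARG00000010710) encodes Musashi1, an RNA-binding protein of neural stem and progenitor cells, and had the smallest adjusted p of the 11 genes. Its values were 950.2, 927 and 1038 in the C246X libraries, against 1631, 1625 and 1454 in the WT libraries. The highest C246X library lay well below the lowest WT library. The C246X mean of 972 ± 58.3 was 61.9% of the WT mean of 1570.0 ± 100.3 (SD, n = 3 each), with a log2 difference of −0.69 and an SE of 0.07 (limma, adjusted p = 0.000666). The MSI1 call held under all 14 alternatives, with differences from −0.75 to −0.66.

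No other gene of the musashi family passed. The MSI2 copy ENSDARG00000032614 differed by 0.12 (limma, adjusted p = 0.24), the MSI2 copy ENSDARG00000033901 by −0.24 (adjusted p = 0.115 in limma) and msi1a by −0.17 (adjusted p = 0.737 in limma). Of the 6 tested musashi and neural RNA-binding protein genes, 1 fell, MSI1 itself (16.7%, against 11.4% of all tested genes). A further gene of this list fell when WT replicate 1 was left out.

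Genes of the cell cycle were also lower, and they mark any dividing cell. Of 24 tested genes on a list of proliferation and progenitor genes, 13 fell and none rose, which is 54.2% lower against 11.4% of all tested genes, with a median difference of −0.85. The 13 were 12 of the list's 16 cell cycle genes and a copy of STMN1, whereas none of its 6 transcription factor genes of neural progenitors (ascl1a, neurog1 and the copies of EOMES and DLX2) passed, with differences of −0.35 to 0.32. One rose without WT replicate 2. The proliferation marker mki67 averaged 265 ± 85.5 scaled reads in C246X and 707 ± 175 in WT (SD, n = 3 each), and the replication licensing gene MCM4 averaged 182 ± 28.7 in C246X and 397 ± 59.9 in WT (SD, n = 3 each). PCNA and MCM7 were among the cell cycle genes that did not pass, with log2 differences of −0.18 and −0.16 (limma, adjusted p = 0.153 and 0.538). The STMN1 copy ENSDARG00000004169, a regulator of microtubules in newborn neurons, had 168, 205 and 242 in C246X, against 405, 354 and 436 in WT. The other STMN1 copy, ENSDARG00000033655, had 47039, 48125 and 51737.5 in C246X and 45817, 48132 and 49127 in WT and did not pass (log2 difference 0.04, limma, adjusted p = 0.728). The summed values of the list, which abundant genes dominate, overlapped between the genotypes, at 56698 to 63133 in C246X and 57208 to 63359.8 in WT.

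A wider list of 44 further radial glia and astroglia genes was read in the same way. Of these 44, 8 fell and 3 rose, which is 25% against 22.5% of all tested genes. By direction, 18.2% were lower and 6.82% higher, against 11.4% and 11.1% of all tested genes. The median difference was −0.08. The libraries of 17 genes did not overlap, 12 of them lower in C246X, which is 38.6% against 41.4% of all tested genes, and for the lower ones 27.3% against 20.7%. Without C246X replicate 3, the number that fell was 5. Of the 11 genes that passed, 7 did so under all 14 alternatives.

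Among the genes that fell, HEPACAM (ENSDARG00000056934), a cell adhesion protein of astrocytes, had 1667, 1755 and 1833 scaled reads in C246X, against 2679, 2484 and 2429 in WT (log2 difference −0.53, SE 0.06, limma, adjusted p = 0.00112). ALDH1L1, a folate enzyme used as an astrocyte marker, had 263, 319.8 and 275 in C246X, against 380.4, 462 and 441 in WT (log2 difference −0.58, limma, adjusted p = 0.0107). The growth factor gene GDF10 ENSDARG00000095378 had 336, 276 and 274 in C246X, against 634, 625 and 422 in WT (log2 difference −0.90, limma, adjusted p = 0.00776). For all 3 genes the genotypes did not overlap, and the calls held under all 14 alternatives. The other copies of HEPACAM, ENSDARG00000112032, and of GDF10, ENSDARG00000073891, did not pass. Their log2 differences were −0.21 and −0.99 (limma, adjusted p = 0.508 and 0.135).

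Among intermediate filament genes, of which 15 were tested, none rose and 1 fell (6.67%, against 11.4% of all tested genes). It was the vimentin copy VIM ENSDARG00000044501, with 658, 555 and 716 scaled reads in C246X, against 922, 855 and 891 in WT (log2 difference −0.47, limma, adjusted p = 0.0128). The other vimentin copy, ENSDARG00000010008, differed by −0.23 and did not pass in limma (adjusted p = 0.33). Nestin (nes), a filament of neural stem cells, had 709.8, 815 and 785 in C246X and 689, 759.7 and 929 in WT, and its libraries overlapped. No filament gene rose in the full set of libraries, and 2 did without WT replicate 2.

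The potassium channel gene KCNJ10 buffers potassium in glia. Its copy ENSDARG00000105022 had 5291, 2376 and 2829 scaled reads in C246X, against 13643, 13657 and 6113 in WT. WT replicate 3 and C246X replicate 1 came close, though the genotypes did not overlap, and the log2 difference was −1.67 with an SE of 0.37 (limma, adjusted p = 0.0153). The call was lost without C246X replicate 2 or 3, at adjusted p-values of 0.0568 and 0.0578 in limma. The other copy, ENSDARG00000090815, differed by −0.14 and did not pass in limma (adjusted p = 0.335), and its share of the pair was 9.91%, 16.4% and 15.8% in C246X, against 4.13%, 3.96% and 8.64% in WT (exact permutation p = 0.1, or 0.2 over the 6 pairs). KCNJ10 is also made by Müller glia, and the part of the retinal markers, lower in C246X as given above, was not tested. ID1 and LFNG fell too, by 0.38 and 0.37 on the log2 scale, and both calls were lost without C246X replicate 1 or 3, that of ID1 also without WT replicate 1 or 3 and that of LFNG also without C246X replicate 2.

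Among the genes that rose, FGFR3, a fibroblast growth factor receptor of radial glia and astrocytes, had 1274, 1348 and 1238 scaled reads in C246X, against 664, 706 and 713 in WT. The C246X libraries lay far above the WT libraries, with a log2 difference of 0.89 and an SE of 0.07 (limma, adjusted p = 0.00013), and the call held under all 14 alternatives. NDRG2, an astrocyte gene, had 7918, 7542 and 6655 in C246X, against 5401, 4884 and 5237 in WT (log2 difference 0.51, limma, adjusted p = 0.00297). The neural stem cell transcription factors did not pass: SOX2 differed by −0.05, SOX3 by −0.02 and the SOX9 copies ENSDARG00000003293 and ENSDARG00000043923 by −0.32 and 0.16.

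**Figure D4:**
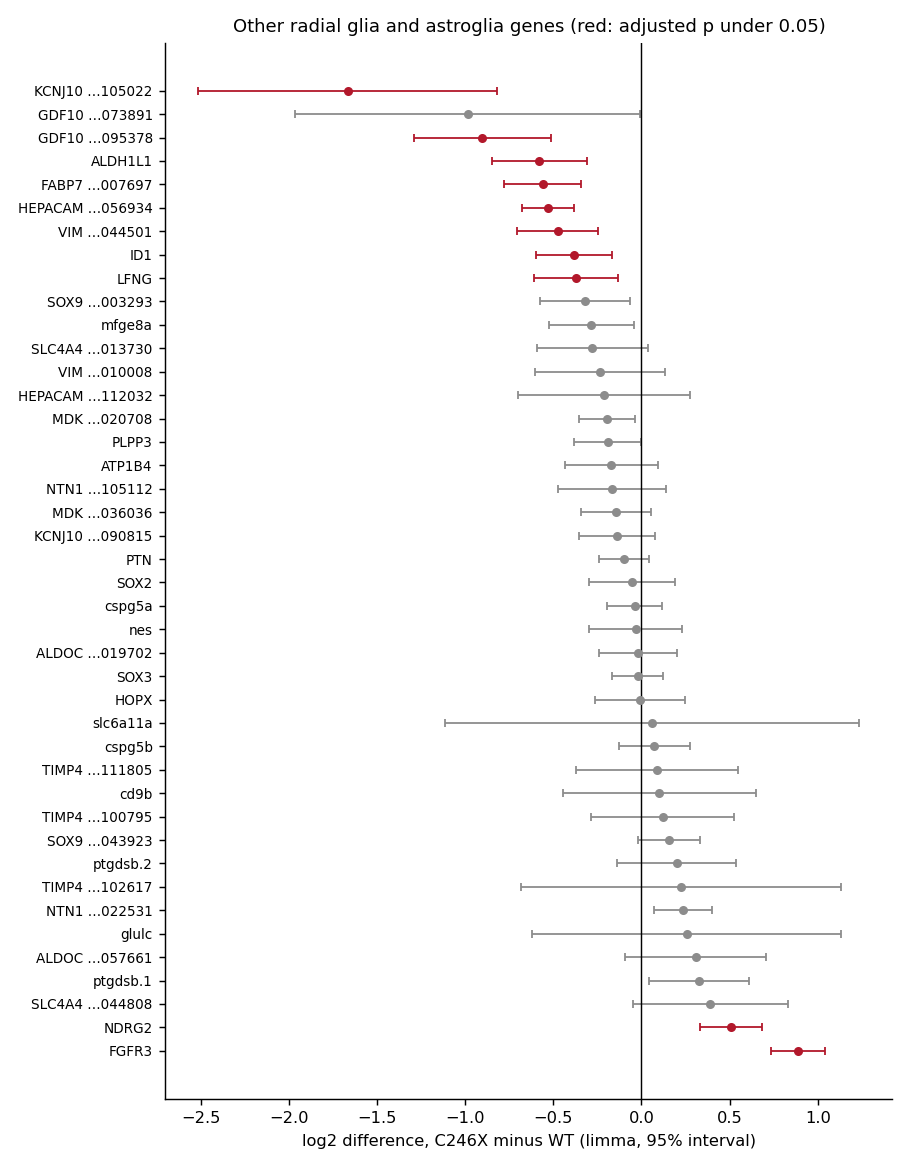
Points give the log2 difference, C246X minus WT, of 42 of the 44 further radial glia and astroglia genes in order of size, with 95% intervals from limma; red points passed at an adjusted p under 0.05. The 8 red points left of 0 include KCNJ10 ENSDARG00000105022, HEPACAM ENSDARG00000056934 and FABP7 ENSDARG00000007697, and the red points right of 0 are FGFR3 and NDRG2.

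The fatty acid and retinoid binding proteins, the family of FABP7, had 4 genes that fell and 1 that rose among the 14 tested beside the FABP7 copy ENSDARG00000034650. This is 28.6% lower, against 11.4% of all tested genes. Beside the FABP7 copy ENSDARG00000007697, fabp4a and fabp4b, relatives of the adipocyte form, fell by 0.72 and 1.57 on the log2 scale (limma, adjusted p = 0.0156 and 0.0119). The fabp4a call was lost without WT replicate 3. The retinoic acid-binding protein gene CRABP2 ENSDARG00000030449 rose by 0.67 (limma, adjusted p = 0.0488) but passed in 3 of 14 alternatives, and lost the call without any 1 of the 6 libraries.

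The name cyp19a1b would have linked the markers to estrogen synthesis, and the 24 tested genes of estrogen synthesis and action had 2 that rose and 2 that fell. This is 8.33% in each direction, against 11.1% higher and 11.4% lower among all tested genes. The gene hsd17b1, whose product makes estradiol from estrone, fell at a low level, with 4.13, 4.07 and 2.01 in C246X, against 11.9, 16.1 and 22.2 in WT (log2 difference −2.01, limma, adjusted p = 0.0135). GREB1 rose by 0.55 and POR ENSDARG00000055092 fell by 0.39. The GREB1 call was lost without C246X replicate 1, 2 or 3 or WT replicate 1 or 2, and the POR call without C246X replicate 2 or 3 or WT replicate 1. With all libraries kept, the GREB1 call was also lost under total-count scaling and under limma-voom. The CYP19A1 gene had 12.4, 12.2 and 10.1 in C246X and 13.9, 12.1 and 15.9 in WT and did not pass.

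Markers of several other cell types of the brain also moved between the genotypes. Among all tested genes, 11.4% fell and 11.1% rose. Of 16 microglia markers tested, 13 fell (81.25%) and none rose, with summed values of 12073 to 15702 in C246X and 25947 to 27616 in WT. Of 15 oligodendrocyte markers, 10 fell (66.7%) and 2 rose (13.3%), with sums of 253631 to 286910.0 in C246X and 352309 to 442550.0 in WT. One oligodendrocyte marker rose in place of 2 without any 1 of the C246X libraries or WT replicate 2 or 3, and with the replicate block. The number of oligodendrocyte markers that fell was 5 without C246X replicate 1, and 6 without C246X replicate 2 or WT replicate 3. Of 12 ependymal and ciliated cell markers, 3 fell (25%) and none rose, with sums of 1443 to 1889 in C246X and 2334 to 3243 in WT. Without WT replicate 1, 6 of these fell.

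Of 25 neuron markers, 2 rose (8%) and 3 fell (12%), close to the shares of all tested genes (11.1% higher, 11.4% lower). Their sums were 423576 to 447638 in C246X and 433995 to 524971 in WT. The number of neuron markers that fell was 5 without WT replicate 1. Of 17 endothelial and mural markers, 1 rose (5.88%) and 4 fell (23.5%). Of 8 oligodendrocyte precursor markers, 1 rose and 1 fell (12.5% each), also close to the shares of all tested genes. The precursor calls were both lost without C246X replicate 1, C246X replicate 2 or WT replicate 3. The rise was also lost without C246X replicate 3, and the fall without WT replicate 1 or 2 and with the replicate block. The gene of the endothelial and mural list that rose lost its call without any 1 of the C246X libraries or WT replicate 1 or 3. Its call was also lost under total-count scaling and limma-voom. Without C246X replicate 2 or 3, 1 neuron marker rose in place of 2. No list had a marker at 0 in every library. The summed radial glia markers themselves ranged from 181404 to 191384 in C246X and from 173327 to 202312 in WT. The part of these other cell types in the values of the radial glia markers was not tested.

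**Figure D5:**
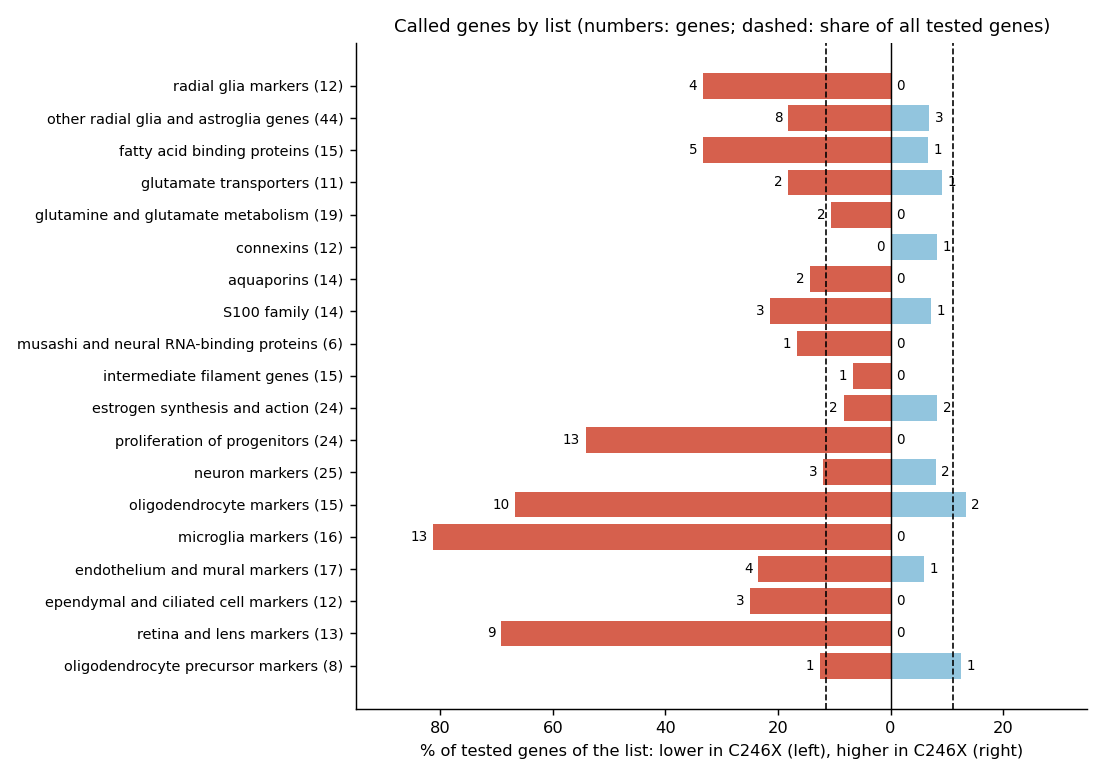
Bars give, for each of the 19 gene lists with its number of tested genes in parentheses, the percent of genes that were lower in C246X (left) and higher in C246X (right) at an adjusted p under 0.05 in limma; numbers at the bars are counts of genes, and dashed lines mark the shares of all tested genes, 11.4% lower and 11.1% higher. The radial glia marker bar includes the FABP7 copy (4 of 12 lower), as does that of the fatty acid binding proteins, and the bar of the S100 family includes s100w. The lists with the longest bars to the left are those of microglia, retina and lens, oligodendrocytes and proliferation.

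Spread within a genotype differed between the markers. Over all tested genes the median SD of the log2 values was 0.137 in C246X and 0.182 in WT, and the SD was larger in WT for 61.3% of genes and for 7 of the 12 markers. S100B had an SD of 0.0201 in C246X and 0.163 in WT, and SLC1A3 ENSDARG00000043148 had 0.141 in C246X and 0.572 in WT. GLUL ENSDARG00000099776 went the other way, with 0.29 in C246X and 0.0186 in WT.

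Neighbouring genes were looked up for the 4 markers that could be placed in the RefSeq gene order, GFAP, S100B, GJA1 and AQP4, with 3 tested genes on each side. Of the 24 neighbours, 4 passed (16.7%), 3 lower and 1 higher, against 22.5% of all tested genes. Each marker had 1 of these within 3 places. They were CCDC47 near GFAP (−0.22), aox6 near S100B (0.27), HSF2 near GJA1 (−0.53) and c1ql1 near AQP4 (−1.65 on the log2 scale). Only the 15809 genes matched to RefSeq by a unique name were ordered, so genes lying between these may be left out.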

How the data were processed

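Polyadenylated RNA of whole brains was sequenced as paired reads of 150 bp, 3 libraries per genotype. The aligner was STAR and the genome build GRCz11, per the submitters' processing notes; which counter, annotation release or scaling was used is not given in the sources used here. As deposited, the table holds 1 signal value per gene and library. From the values, the deposited signal is an estimated read number divided by 1 factor per library: 95.0% to 95.1% of values under 1000 were whole multiples of a step, within 0.03, which gave factors of 0.944 to 1.00.

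Genes with a mean of at least 1 (23104 of 23678; 574 lay below) were transformed to log2(value + 1). Genotype was the only term of the limma fit (version 3.58.1, R 4.3.3; eBayes with trend), and Benjamini-Hochberg adjusted p-values under 0.05 were called. Gene copies were compared by exact two-sided permutation tests over libraries. The p given beside shares is for the log2 ratio of the copies, with 1 added to each value. The p given beside sums is for the log2 of the sum. The members and the gene lists were chosen with earlier results of these data known. A gene-name table gave symbols to 22274 genes, 3361 of them shared; older names and gene order came from RefSeq's GRCz12tu table. Of 340 names on 19 lists, 297 matched.

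Named genes are the markers, their paralogs, gene-order neighbours, the closest profiles of GFAP and FABP7 ENSDARG00000034650, and the 2 smallest p-values per direction in each list. Further genes named here (mki67, PCNA, MCM7, ascl1a, neurog1, EOMES, DLX2, STMN1 ENSDARG00000033655, HEPACAM ENSDARG00000112032, ALDH1L1, GDF10, KCNJ10, ID1, LFNG, fabp4a, fabp4b, SOX2, SOX3, SOX9, nes and the CYP19A1 gene) are list members chosen after their values were seen. Some genes that the rule or the lists take are not reported here, and their counts stay in those of the lists. Alternatives were 3 other scalings, a minimum of 1 CPM in 3 libraries, no filter, a pseudocount of 0.1, limma-voom on the recovered estimates, a replicate block and each library left out. Python 3.11.15, pandas 2.3.3 and matplotlib 3.10.9 were used.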

Additional observations from a re-analysis of the deposited data

How the results depend on the processing

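Over 14 alternatives, no radial glia marker rose. The counts of markers that fell include the FABP7 copy. It was named for its fall, so its passing in all 14 followed from that choice and tests nothing. With all libraries 4 of 12 fell, or 3 of 11 without this copy (27.3%, against 11.4% of all tested genes). Where a name was matched to a pair of genes, both copies are counted. Without C246X replicate 3 the number was 2, MSI1 and this copy. With 1 library left out, the number that fell, this copy included, ranged from 2 to 5. Of the 44 further glial genes, 8 fell with all libraries, 5 without C246X replicate 3, and 5 to 10 over the libraries left out, whereas 2 to 4 rose. GFAP and AQP4 changed sign with single libraries left out, to 0.0804, 0.07 and 0.0808 for GFAP (range over the libraries left out −0.15 to 0.0808) and to 0.18 and 0.49 for AQP4 (range −1.004 to 0.49); the cause was not tested. AQP4 and SLC1A2 ENSDARG00000052138 had no value under the 1 CPM filter. Whether the replicate numbers pair the samples is not known. With each gene's genotype mean subtracted, the deviations of same-numbered libraries correlated weakly, at 0.0734, 0.0475 and 0.0554. By these deviations, each library correlated best with its own number. The deviations cancel within a genotype, so correlations of mixed sign for each library were fixed in advance. With the replicate block, 4 markers fell, the FABP7 copy among them, and none rose. Of the further glial genes 9 fell and 4 rose with that block, and of glutamine and glutamate metabolism 2 rose and 1 fell. No scaling moved the median of all genes by over 0.1. Fits with edgeR and DESeq2 were not run, because not all values were whole reads. Depth limits AQP4 and SLC1A2 ENSDARG00000052138, whose means were under 20.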
